A study of Homo sapiens with 28 samples.

Results

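The comparison described here sets 2 clones of U937 cells with a CRISPR knockout of REL, the gene of the NF-kB subunit cREL, against 3 control clones (CTR), all treated with lipopolysaccharide (LPS) at 500 ng/ml with a time point of 6 h. U937 is a human monocytic line derived from a histiocytic lymphoma. The control clones had received non-specific guide RNAs. The 5 LPS libraries were taken from 28 in all, which hold untreated and LPS-treated cultures of the same cREL and CTR clones and of p50, p52, p65 and RELB knockout clones. All expressed genes were compared, 18624 of the 56809 in the deposited table. Each clone was sequenced once per treatment, so a group of 2 or 3 libraries is a group of 2 or 3 clones. The p-values rest on the spread between libraries within groups over the whole series. The fit takes the untreated and LPS libraries of a clone as independent, although they are paired. The labels put cREL replicate 1 in sample batch B and cREL replicate 2 in batch A, CTR replicate 2 in batch B and CTR replicates 1 and 3 in batch C. Batch A holds no CTR clone, so 1 control shares a batch with a cREL clone, and the batch term of the model was estimated with the help of the other knockouts. Of these, only p65 has clones in batch C, its replicates 2 and 3.

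LPS, a glycolipid on the surface of Gram-negative bacteria, binds the receptor TLR4 with the help of CD14, and the adaptors and kinases below it release NF-kB dimers from IkB inhibitors in the cytoplasm. The dimers then enter the nucleus and switch on cytokines, chemokines, adhesion molecules and, as feedback, their own inhibitors. cREL is a subunit with a transactivation domain, best known from lymphocytes and from cytokine genes of macrophages and dendritic cells.

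The estimated counts of the 5 libraries summed to between 15793905 and 19634204. Across genes, their log2 CPM (counts scaled to a common library size) correlated at 0.948 to 0.966, and no libraries were identical. Defining T cell genes (CD3D, CD3E, CD7, TRBC1, TRBC2) were at 0 in all 5, while NKG7, a granule protein of cytotoxic and myeloid cells, averaged 392 TPM, a unit that is scaled by transcript length and so can be compared between genes. The summed TPM of the 18 T and NK cell markers was 353 to 501 in CTR and 424 to 443 in cREL libraries. The sum of the 6 platelet markers was 0.823 to 9.76 TPM in CTR and 0.168 to 1.11 TPM in cREL libraries, with PF4 and GP9 at 0 in all 5. The 6 fibroblast markers summed to 1.15 to 3.44 TPM in CTR and to 0.400 to 0.607 TPM in cREL libraries, without overlap and with COL3A1 and LUM at 0. The sums of the 8 erythroid and 6 epithelial markers were at most 2.61 TPM and overlapped, as did that of the 7 B cell markers, between 8.85 and 12.8 TPM. The part of these levels in the results below was not tested. Of the myeloid genes taken as markers of the line, CD33 was at 64.3 to 101 CPM in CTR and at 82.1 and 88.6 CPM in cREL libraries. CTSG, ELANE and LYZ, also of this set, are given below, and MPO was not among the genes tested. CD14 and the macrophage receptor CSF1R were lower than CD33, CSF1R at 10.9 to 26.7 and at 22.8 and 5.50 CPM.

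Libraries of this comparison, like others of the series, stood apart along chromosomes. Genes were taken in windows of 10 Mb, each with at least 15 genes of mean log2 CPM over 3, and set against the median of the 14 LPS libraries. cREL replicate 1 had 0 of 221 windows beyond 0.5 on the log2 scale. cREL replicate 2 had 3, all on chromosome 2, the chromosome of REL (REL lies at chr2:60881521-60931610, GRCh38). In that library the 191 genes from 0 to 70 Mb had a median of −0.40, with 90.1% of them below 0, and the 41 genes from 70 to 80 Mb a median of −0.85. The 24 genes from 80 to 90 Mb had a median of 1.14 and none was below 0, and the 356 genes beyond 90 Mb a median of 0.03. The low level from 0 to 70 Mb was not found in that library alone: CTR replicate 2 had a median of −0.29 over the same 191 genes, with 71.7% below 0, and its lowest window lay there as well, from 20 to 30 Mb (−0.68). CTR replicate 2 was at 0.13 from 70 to 80 Mb and at −0.17 from 80 to 90 Mb, and cREL replicate 1 between −0.03 and 0.01 over all 4 stretches. The change of sign lay between GCFC2, which starts at position 75652000 and was at −2.85, and SUCLG1, an enzyme of the citric acid cycle that starts at 84423523 and was at 1.56. The raised stretch ended between RMND5A (86720173, at 1.30) and CYTOR (87454781, at 0.35). The untreated library of the same clone gave medians of −0.41, −0.94, 1.44 and 0.07 over these 4 stretches. CTR replicate 1 had 13 windows beyond 0.5, the lowest at the start of chromosome 6 (−1.01) and the highest on chromosome 12 (0.63). CTR replicates 2 and 3 had 2 and 1 such windows. Among the other knockouts with LPS, RELB replicate 2 had 3 windows above 0.5 and 11 below −0.5, and p65 replicate 2 had 1 and 5. By contrast, p50 replicate 1, p65 replicate 1 and both p52 replicates had 0. Of the 487 genes tested below 90 Mb on chromosome 2, 1 passed the test of the LPS comparison, CDC42EP3, or 0.205% of them. Leaving these genes out and adjusting over the rest gave 36 genes past the threshold, all among the 37 reported below.

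More of the called genes lay where a control was high. On chromosome 1 from 150 Mb, CTR replicate 2 was at 0.19 to 0.52 in all 9 windows, and 6 genes called lower lie there, SLAMF1, RGL1, DUSP10, FAM129A, PIP5K1A and UHMK1. On chromosome 12, CTR replicate 1 was at 0.08 to 0.63 over 12 windows, which hold 4, P2RX7, EMP1, SLC2A3 and SLC35E3. With a limit of 0.25, chosen after the windows had been seen, a control was high in 28 of 221 windows. These held 13.5% of the genes with a window and 10 of the 31 genes called lower that have one, so that 0.446% of the genes in them were called lower, against 0.186% over all windows. Leaving out the genes of the 51 windows where any of the 5 libraries was beyond 0.25 in either direction, and adjusting over the rest, gave 23 genes past the threshold, all among the 37. The part of these stretches in the folds below was not tested.

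**Figure D1:**
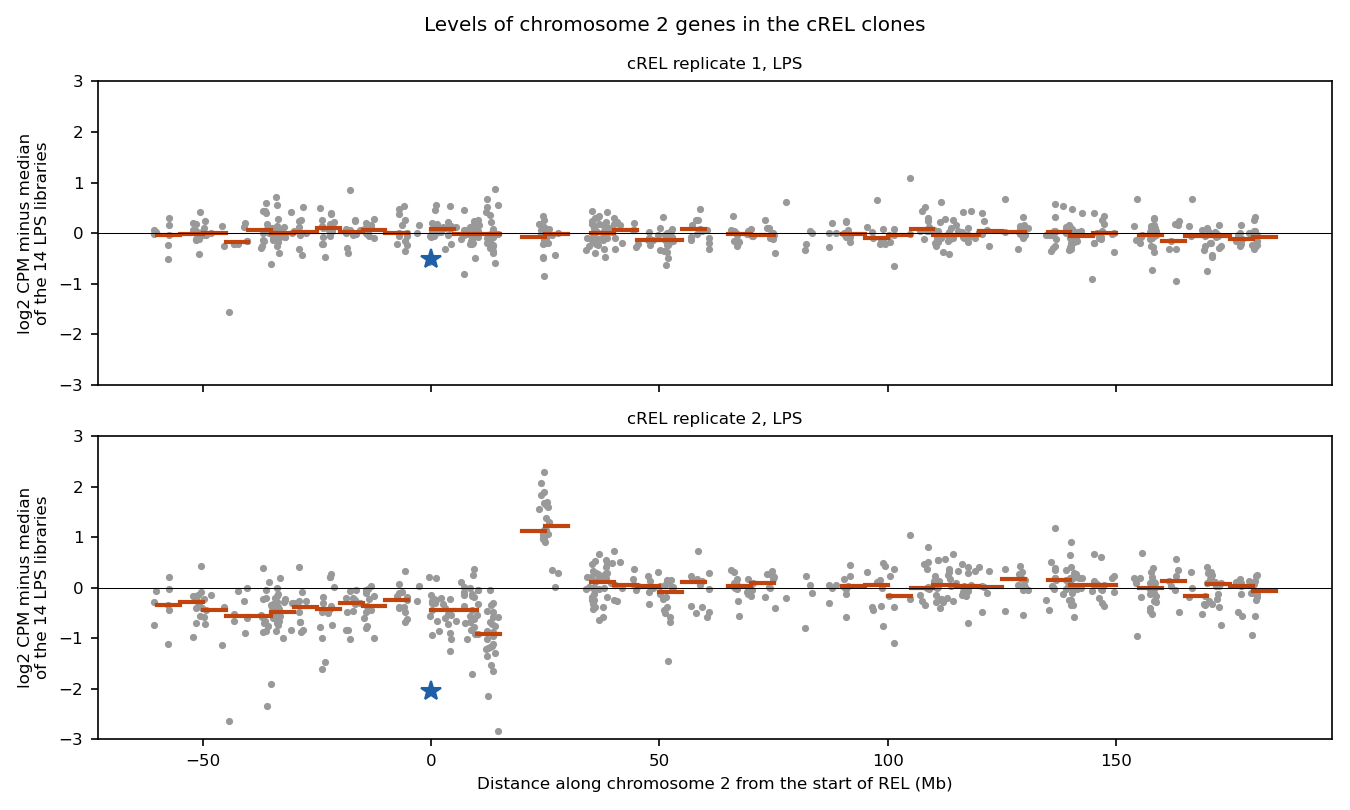
Levels of 612 chromosome 2 genes in the LPS libraries of both cREL clones, as log2 CPM minus the median of the 14 LPS libraries, against the distance of the gene's start from that of REL in Mb. Bars are medians over 5 Mb, the star is REL, and 3 points lie outside the axis; replicate 1 stays near 0, whereas replicate 2 is below 0 up to about the 15 Mb after REL and above 0 in the next group of genes.

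REL messenger RNA was lower in both knockout clones, by different amounts. With LPS, REL was at 14.7, 12.5 and 13.8 TPM in CTR replicates 1 to 3, at 7.11 TPM in cREL replicate 1 and at 2.49 TPM in cREL replicate 2. Without LPS the CTR libraries held 10.4, 10.96 and 12.1 TPM and the cREL libraries 8.61 and 2.91 TPM. The groups did not overlap in either treatment, but in TPM the level of cREL replicate 1 lay within that of the other knockouts with LPS, which ran from 5.78 to 16.0 TPM. By CPM its LPS level, 23.9, was under all of theirs, which ran from 25.7 to 45.1 CPM. In CPM the log2 fold with LPS was −1.15 ± 0.34 (edgeR standard error; edgeR adjusted p = 0.229). Against the 14 LPS libraries REL stood at −2.04 in cREL replicate 2, below the median of its stretch of the chromosome, and at −0.51 in cREL replicate 1. The position of the guide is not given in the sources used here, and an edited gene can still be transcribed, so these levels do not check the loss of the protein.

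The other subunits did not pass the test in CPM. NFKB2, which encodes the precursor of p52, was at 5.19, 6.84 and 7.51 TPM in CTR and at 0.997 and 0.989 TPM in cREL libraries with LPS, and untreated libraries of both groups lay between 0.767 and 2.87 TPM. Its log2 fold of −2.39 ± 0.54 had an edgeR adjusted p of 0.0905. RELB was at 19.6, 26.2 and 18.4 TPM against 9.25 and 3.12 TPM, and NFKB1, which encodes p50, at 10.3, 14.5 and 13.2 TPM against 8.45 and 4.91 TPM. RELA, which encodes p65, overlapped between the groups, at 26.1, 38.3 and 34.9 TPM against 29.9 and 27.8 TPM. Its fitted log2 fold, −1.56 (edgeR adjusted p = 0.482), goes beyond what these levels show; p65 knockout clones enter the estimate of the batch term, and their part in this value was not tested. DESeq2 called 1 of the 5 subunit genes, NFKB2, and all 5 had an unadjusted edgeR p under 0.05, against 9.14% of all genes tested.

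With LPS, 37 of the 18624 genes differed between the cREL and CTR clones at an edgeR adjusted p under 0.05, which is 0.199% of the genes tested. Of these, 32 were lower in the cREL clones (0.172%) and 5 higher (0.0268%). The genes that fell included secreted inflammatory proteins (CCL2, IL1B, TNF, CXCL8), surface receptors (TNFRSF9, ICAM1, CD44, P2RX7, CSF2RB) and the mitochondrial superoxide dismutase SOD2. Their median log2 fold was −1.87, against −0.02 over all genes tested. The CPM ranges of the groups did not overlap for 29 of the 32; over all genes tested 11.6% were lower without overlap. In batch B alone, with 1 library on each side, all 32 were lower in the cREL clone, with a median log2 difference of −1.51. Both libraries are also in the fit that chose these genes, so this is not an independent check. Over all 18624 genes tested, 9342 were lower in batch B alone, with a median of −0.003. At an unadjusted p under 0.05 there were 1702 genes (9.14%), 1022 lower and 680 higher. Of all 18624 fitted folds 9565 were negative and 9059 positive, and DESeq2 called 229 genes. In bulk RNA, fewer cells with a transcript and less of it per cell cannot be told apart.

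**Figure D2:**
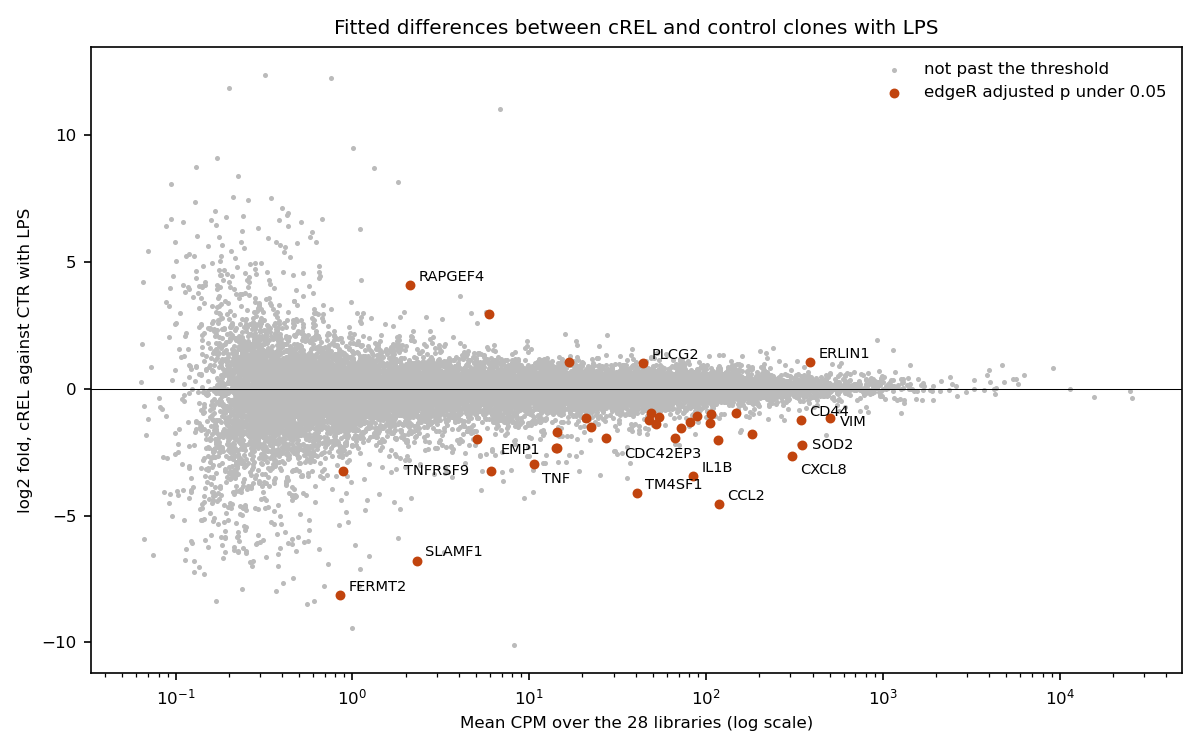
Fitted log2 fold of cREL against CTR with LPS for the 18624 genes tested, against the mean CPM over 28 libraries on a log scale. The 32 genes lower and 5 higher at an edgeR adjusted p under 0.05 are filled; most of the lower ones lie above 10 CPM.

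The count rests on both knockout clones. Without cREL replicate 2 1 gene passed, the unnamed transcript AC005538.2, which is not among the 37, and without cREL replicate 1 19 passed, 3 of them among the 37 (TNF, CDC42EP3 and SLC2A3). Without CTR replicate 2, the control that shares a batch with a knockout clone, 10 passed, 3 of them shared (CCL2, CDC42EP3 and SLC2A3), and without CTR replicate 3 18, of which 14 were shared. Without CTR replicate 2 the log2 folds of TM4SF1, CXCL8, DUSP10, DENND5A and PIP5K1A moved by over 1.5 times, to −1.70, −1.71, −0.92, −0.63 and −0.57. With clones as a random effect, which takes the untreated and LPS libraries of a clone as paired, limma voom called 38 genes, 27 of them among the 37. The 10 that it did not call were FERMT2, SLAMF1, SOD2, RGL1, DENND5A, SLC35E3, AC005632.2, PLCG2, FAM173B and RAPGEF4, with limma voom adjusted p of 0.0566 to 0.142. Each of the 37 kept its direction under all 14 refits with another setting or without a clone. These refits use all or part of the libraries that chose the 37 genes, so this is not an independent check.

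CCL2, the chemokine that draws monocytes (chr17:34255218-34257203), had the largest fold among the called genes with a mean over 5 CPM. It was at 820, 368 and 1023 CPM in CTR replicates 1 to 3 and at 29.6 and 35.1 CPM in the cREL clones with LPS. The log2 fold was −4.55 ± 0.63 (edgeR adjusted p = 0.00461). Every cREL library was more than an order of magnitude below the lowest control. Without LPS, CCL2 was already lower, at 80.3, 132 and 64.3 CPM against 13.5 and 11.9 CPM, a log2 fold of −2.95 ± 0.57 that did not pass (edgeR adjusted p = 0.241). CXCL8, the neutrophil chemokine (chr4:73740506-73743716), was at 552, 1784 and 871 CPM in CTR and at 261 and 150 CPM in cREL libraries with LPS, a log2 fold of −2.64 ± 0.48 (edgeR adjusted p = 0.0311). Without CTR replicate 2, the highest control, it was −1.71 (edgeR adjusted p = 0.362). Its untreated levels overlapped, at 48.3, 128 and 38.5 CPM against 42.6 and 42.0 CPM. In both cREL clones CXCL8 was higher with LPS than without, yet under the level of each control.

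The 20 chemokines tested, of 24 listed, held 2 genes called lower, CCL2 and CXCL8, against 0.172% of all genes tested, and none higher. In this list 18 folds were negative, against 9565 of all 18624 genes tested, with a median log2 fold of −1.97. Without overlap 11 genes were lower, against 11.6% of all genes tested. CXCL2, a neutrophil chemokine, was at 45.8, 157 and 60.1 CPM against 19.7 and 16.2 CPM (edgeR adjusted p = 0.0541). CCL3, a macrophage inflammatory protein, was at 139, 94.4 and 160 CPM against 36.5 and 19.1 CPM (edgeR adjusted p = 0.282). CXCL10, which interferons induce, overlapped: CTR replicate 1 had 2385 and replicate 3 1061 CPM, but CTR replicate 2 had 66.9 CPM, next to 80.3 and 33.2 CPM in the cREL clones. CCL5 also overlapped, at 164, 90.8 and 159 CPM against 90.9 and 100 CPM. The list's median in batch B alone was −1.31.

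IL1B, the precursor of interleukin-1 beta (chr2:112829751-112836903), was at 195, 394 and 316 CPM in CTR and at 38.6 and 19.8 CPM in cREL libraries with LPS. Its log2 fold was −3.45 ± 0.60 (edgeR adjusted p = 0.0231). Untreated it was at 6.57, 15.6 and 5.94 CPM against 4.78 and 2.61 CPM, so both groups were higher with LPS and the cREL clones stayed under every control. TNF, the cytokine tumour necrosis factor (chr6:31575567-31578336), was at 37.1, 31.2 and 26.8 CPM against 3.92 and 3.28 CPM, a log2 fold of −2.98 ± 0.44 (edgeR adjusted p = 0.00501). Untreated it was at 7.99, 5.19 and 3.65 CPM in CTR and at 3.57 and 2.48 CPM in the cREL clones. The controls were thus several times higher with LPS, and the cREL clones nearly level.

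Of 26 cytokine genes listed 18 were tested. IL1B and TNF were the 2 called, both lower, against 0.172% of all genes tested. In this list 16 folds were negative, against 9565 of all 18624 genes tested, with a median log2 fold of −1.83 (−1.21 in batch B alone). IL1RN, the decoy ligand of the interleukin-1 receptor, was at 97.0, 22.5 and 32.4 CPM in CTR and 9.80 and 6.82 CPM in cREL libraries (edgeR adjusted p = 0.349). IL18 overlapped between the groups, at 83.3, 40.9 and 56.8 CPM against 69.2 and 32.5 CPM, and so did TNFSF13B, the B cell factor BAFF, at 76.6, 36.9 and 37.0 CPM against 44.1 and 44.2 CPM.

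Among surface proteins, 4 of the 20 adhesion and costimulation genes tested fell, ICAM1, CD44, TNFRSF9 and SLAMF1, against 0.172% of all genes tested. The list's median log2 fold was −0.79. ICAM1, the ligand of leukocyte integrins (chr19:10270835-10286615), was at 606, 373 and 868 CPM in CTR against 160 and 119 CPM in the cREL clones with LPS (log2 fold −1.78 ± 0.30, edgeR adjusted p = 0.0176). Without LPS all 5 libraries lay between 83.4 and 112 CPM, and the untreated log2 fold was 0.09 ± 0.28. CD44, the hyaluronan receptor, was at 918, 427 and 623 CPM against 232 and 242 CPM (edgeR adjusted p = 0.0378), and untreated at 426, 342 and 339 CPM against 237 and 240 CPM. TNFRSF9, the costimulatory receptor 4-1BB (chr1:7915894-7943165), was at 11.8, 32.5 and 22.0 CPM against 3.03 and 2.22 CPM (edgeR adjusted p = 0.0195). The integrin chains ITGB2 and ITGA4 overlapped between the groups, with log2 folds of 0.01 and 0.04. In this list leaving out 1 clone, in both treatments, moved the median to between −0.38 (without CTR replicate 2) and −1.39 (without cREL replicate 1).

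SLAMF1, a self-ligand receptor of lymphocytes and phagocytes, rested on few reads in the knockout: its counts were 42, 207 and 162 in CTR and 0 and 2 in cREL libraries. The level in CTR over that in cREL was a ratio of 137, with a 95% counting interval of 37.8 to 1138, which covers counting error only (edgeR adjusted p = 0.0396; limma voom adjusted p = 0.133 with clones blocked). FERMT2, which encodes the integrin adaptor kindlin-2, had 2, 45 and 8 counts in CTR and 0 in both cREL libraries. Taking 3 counts over both libraries as the floor, it was at least 12.3-fold lower (edgeR adjusted p = 0.0378; limma voom adjusted p = 0.142 with clones blocked), and most of its control counts came from CTR replicate 2. SLAMF1 was called lower, the 1 of 17 tested in the list of genes linked to cREL in lymphoid and myeloid cells. This compares with 0.172% of all genes tested, and the list's median log2 fold was −0.67. In that list MYC was at 479, 314 and 662 CPM against 379 and 488 CPM, and IRF8, a factor of monocyte and dendritic cell development, at 145, 83.5 and 144 CPM against 120 and 96.0 CPM. Both overlapped between the groups.

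**Figure D3:**
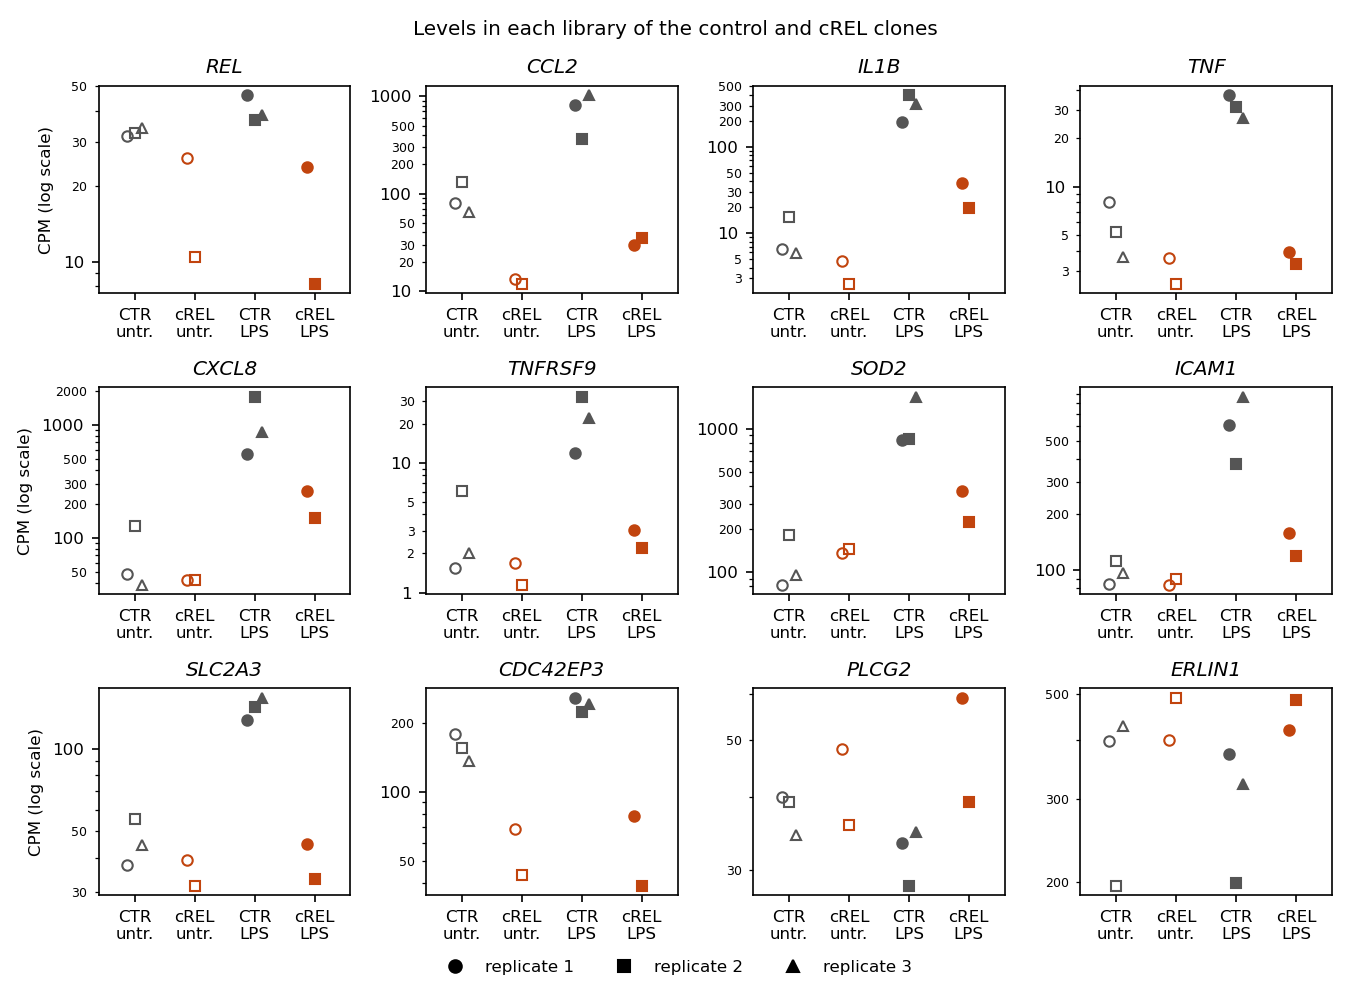
CPM on log scales in each untreated (open) and LPS (filled) library of the CTR (grey) and cREL (orange) clones, with symbols for replicates, for REL and 11 genes past the threshold. In the 9 genes from CCL2 to CDC42EP3 both cREL clones with LPS lie under all 3 controls, and in PLCG2 and ERLIN1 above them.

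The start-site sequences of the genes that fell were read for an NF-kB site. Promoters from 250 bases before to 50 after the start were matched by symbol in RefSeq (GRCh38.p14) for 26 of the 32 lower and 2 of the 5 higher genes. A loose NF-kB motif, GGG and CC with any 5 bases between them, on either strand, was in 18 of 26 (69.2%), against 71.6% of the 11330 tested genes with an entry and 58.0% of all 27305. The stricter GGAATTTCC, chosen after the promoters had been seen, was in 3 of 26 (11.5%), against 0.415% of the tested and 0.472% of all promoters. A match of GGAATTTCC can lie inside a match of the loose motif. The 3 promoters are TNFRSF9, CXCL8 and ICAM1, and they are shown because all of these genes had lower LPS levels in both cREL clones. The 250 bases before each RefSeq start are printed 5′ to 3′ on the gene's strand, with the match in capitals; in ICAM1 it lies on the other strand. These RefSeq starts are not those of the GENCODE gene spans given above: they lie 2326 bases inside the span of TNFRSF9, 63 inside that of CXCL8 and 285 inside that of ICAM1, so the printed stretches overlap the spans. A match is a description of letters and no test was made of it.
TNFRSF9, chr1:7940840-7941089, minus strand: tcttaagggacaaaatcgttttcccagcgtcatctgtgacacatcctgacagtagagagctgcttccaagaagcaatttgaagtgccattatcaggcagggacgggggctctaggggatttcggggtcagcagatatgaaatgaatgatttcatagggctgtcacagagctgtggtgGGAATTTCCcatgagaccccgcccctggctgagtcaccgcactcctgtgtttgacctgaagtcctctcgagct
CXCL8, chr4:73740319-73740568, plus strand: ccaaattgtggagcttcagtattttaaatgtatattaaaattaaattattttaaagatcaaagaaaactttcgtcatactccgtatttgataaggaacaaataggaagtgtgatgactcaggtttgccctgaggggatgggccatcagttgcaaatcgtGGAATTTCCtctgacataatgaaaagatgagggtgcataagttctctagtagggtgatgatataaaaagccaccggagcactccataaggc
ICAM1, chr19:10270870-10271119, plus strand: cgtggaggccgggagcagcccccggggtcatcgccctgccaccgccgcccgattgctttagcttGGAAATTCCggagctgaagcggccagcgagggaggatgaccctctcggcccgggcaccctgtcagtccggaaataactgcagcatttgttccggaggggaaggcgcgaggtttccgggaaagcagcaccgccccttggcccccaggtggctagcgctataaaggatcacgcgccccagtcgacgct

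Genes other than cytokines, chemokines and adhesion or costimulation genes fell as well. SOD2 was at 831, 857 and 1684 CPM in CTR and at 367 and 225 CPM in the cREL clones with LPS (log2 fold −2.23 ± 0.40, edgeR adjusted p = 0.0264), and with clones blocked its limma voom adjusted p was 0.0727. Untreated it overlapped, at 81.7, 182 and 96.4 CPM against 135 and 145 CPM. SLC2A3, the glucose transporter GLUT3 (chr12:7919230-7936275), was at 128, 142 and 154 CPM against 45.0 and 33.5 CPM (log2 fold −1.95 ± 0.25, edgeR adjusted p = 0.00195). Its untreated levels were 37.7, 55.6 and 44.5 CPM against 39.3 and 31.6 CPM, so in both cREL clones LPS and untreated libraries were alike in level while each control was higher with LPS. SLC2A3 passed in 13 of 14 refits and CCL2 in 12. IRAK2, a kinase of the TLR4 adaptor complex, was at 97.0, 87.9 and 118 CPM against 49.9 and 43.1 CPM (edgeR adjusted p = 0.0396). NR3C1, the glucocorticoid receptor, was at 71.6, 83.3 and 84.8 CPM against 45.5 and 37.7 CPM (edgeR adjusted p = 0.0396).

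Receptors and signalling inhibitors were among the remaining genes that fell. CSF2RB, the chain shared by the receptors of GM-CSF, IL-3 and IL-5, was at 85.8, 102 and 92.2 CPM in CTR and at 40.4 and 39.5 CPM in the cREL clones with LPS (log2 fold −1.41 ± 0.20, edgeR adjusted p = 0.00355). P2RX7, an ion channel gated by extracellular ATP, was at 22.4, 30.2 and 37.7 CPM against 6.83 and 5.55 CPM (edgeR adjusted p = 0.0254). DUSP10, a phosphatase of stress-activated MAP kinases, was at 22.4, 31.8 and 30.5 CPM against 6.57 and 8.77 CPM (edgeR adjusted p = 0.0317), with a log2 fold of −1.71 that was −0.92 without CTR replicate 2. CISH, an inhibitor of cytokine receptor signalling, was at 122, 181 and 139 CPM against 70.5 and 68.4 CPM (edgeR adjusted p = 0.0195). SDC4, the heparan sulfate proteoglycan syndecan-4, was at 204, 217 and 156 CPM against 84.1 and 84.6 CPM (edgeR adjusted p = 0.0195). In each of these 5 genes the cREL clones were close to each other and below every control. The other 7, RGL1, FAM129A, DENND5A, SLC35E3, PIP5K1A, EAF1 and the unnamed transcript AC005632.2, had log2 folds from −3.23 (AC005632.2) to −0.96 (EAF1), also without overlap.

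Without LPS, 0 genes passed between cREL and CTR clones in edgeR, 1077 had an unadjusted p under 0.05 (5.78%), and DESeq2 called 24. Some of the 32 genes nevertheless had lower levels in both untreated cREL clones. CDC42EP3, an effector of the GTPase CDC42 (chr2:37641882-37738468), was at 259, 224 and 243 CPM in CTR and at 78.4 and 38.8 CPM in cREL libraries with LPS (log2 fold −2.01 ± 0.26, edgeR adjusted p = 0.00195). Untreated it was at 180, 156 and 137 CPM against 69.0 and 43.4 CPM (log2 fold −1.43 ± 0.26, edgeR adjusted p = 0.115). It lies in the stretch of chromosome 2 where cREL replicate 2 was low, but cREL replicate 1, which showed no such stretch, was also under every control. NRP1, a receptor for semaphorins and VEGF, was at 49.4, 48.1 and 36.9 CPM against 12.9 and 12.5 CPM with LPS (edgeR adjusted p = 0.0474), and at 33.5, 45.2 and 31.2 CPM against 12.5 and 16.7 CPM untreated. VIM, the intermediate filament vimentin, had 601, 751 and 436 CPM against 312 and 277 CPM with LPS (edgeR adjusted p = 0.0311). Its log2 folds were −1.15 ± 0.22 with and −1.0 ± 0.22 without LPS. EMP1, a membrane protein, had log2 folds of −2.33 ± 0.47 with and −2.53 ± 0.49 without LPS. Of the 32 lower genes, 30 had the same sign untreated, with a median of −0.71. Over all 18624 genes tested, 9275 were negative untreated, with a median of 0.002. The untreated libraries come from the same clones and are in the fit that chose the 32 genes, so this is not an independent check.

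In 3 of the 32, TM4SF1, STARD4 and UHMK1, the groups overlapped. TM4SF1 was at 3.73, 425 and 7.06 CPM in CTR and at 15.1 and 10.7 CPM in the cREL clones, so that its fitted log2 fold of −4.13 ± 0.76 rests on CTR replicate 2. Without that clone its edgeR adjusted p was 0.494. STARD4, a cholesterol carrier, was at 21.9, 59.5 and 18.0 CPM against 18.9 and 12.2 CPM, and UHMK1 at 91.9, 179 and 75.0 CPM against 91.3 and 84.8 CPM.

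The 5 genes that were higher in the cREL clones were RAPGEF4, AL359195.2, ERLIN1, FAM173B and PLCG2, with a median log2 fold of 1.05. PLCG2, a phospholipase of receptor signalling in blood cells (chr16:81739097-81962693), was at 33.4, 28.2 and 34.8 CPM in CTR and at 59.1 and 39.3 CPM in cREL libraries with LPS (log2 fold 1.01 ± 0.19, edgeR adjusted p = 0.0327), and with clones blocked its limma voom adjusted p was 0.0592. ERLIN1, a membrane protein of the endoplasmic reticulum (chr10:100150094-100188334), was at 373, 199 and 322 CPM against 419 and 487 CPM (log2 fold 1.05 ± 0.19, edgeR adjusted p = 0.0259), with CTR replicate 2 lowest in both treatments. FAM173B was at 13.4, 9.65 and 13.9 CPM against 17.4 and 22.6 CPM (limma voom adjusted p = 0.0652 with clones blocked). RAPGEF4, an exchange factor that cyclic AMP activates, had 2, 1 and 3 counts against 43 and 15 (limma voom adjusted p = 0.100 with clones blocked). The transcript AL359195.2 was at 6.15, 0.415 and 4.65 CPM against 6.89 and 7.50 CPM, again with CTR replicate 2 lowest. All 5 were higher without overlap, against 11.1% of all genes tested. All 5 had the same sign untreated, in the same clones and fit, where 9349 of all 18624 genes tested were positive. The folds depended on the batch term. Fitted without it, PLCG2, ERLIN1, FAM173B and AL359195.2 had log2 folds of 0.61, 0.60, 0.70 and 0.95. Their edgeR adjusted p ran from 0.648 to 0.920, and AL359195.2 had 2.95 with the term. RAPGEF4 had a log2 fold of 3.82 without the term (edgeR adjusted p = 0.0227).

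The response to LPS itself was compared in 2 ways. First, 26 genes were taken that LPS raised over the p50, p52, p65 and RELB clones (edgeR adjusted p under 0.05, log2 fold over 1), a contrast without the CTR and cREL libraries. Between cREL and CTR with LPS all 26 had negative log2 folds, with a median of −1.97 (−1.48 in batch B alone), and 25 were lower without overlap, CXCL10 being the exception. Of these, 6 passed the test, IL1B, TNFRSF9, TNF, CXCL8, SOD2 and ICAM1. Over all genes tested, 0.172% were called lower and 11.6% were lower without overlap. The same 26 had a median of 0.06 between untreated cREL and CTR clones. Against the median of the 28 libraries, the median of the list was 2.47, 2.66 and 3.12 in CTR replicates 1 to 3 with LPS and 0.92 and 0.21 in the cREL clones. CCL4, a macrophage inflammatory protein, was higher with LPS in the knockout clones too, though less so than in the controls. It was at 0.135 and 0.0637 CPM in the untreated cREL libraries and at 13.0 and 11.04 CPM with LPS, where the controls had 108, 30.9 and 113 CPM.

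Second, the difference in LPS response between cREL and CTR was tested for every gene. No gene passed in edgeR, 560 genes had an unadjusted p under 0.05 (3.01%), and DESeq2 called 4, among them ICAM1, SLC2A3 and SOD2, the fourth being HNRNPUL2-BSCL2. The edgeR differences of ICAM1 and SLC2A3 were −1.87 ± 0.37 and −1.49 ± 0.30 on the log2 scale, each with an edgeR adjusted p of 0.823. Among the 32 lower genes 22 had a negative difference with an unadjusted p under 0.05; the same LPS libraries chose them.

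Inhibitors and feedback genes of the pathway had mostly negative folds. In edgeR 0 of 17 were called, 9 had an unadjusted p under 0.05 and DESeq2 called 6. Negative folds numbered 14, and the median was −1.04. Over all 18624 genes tested, 9.14% had an unadjusted p under 0.05, DESeq2 called 229 and 9565 folds were negative. TNFAIP3, the ubiquitin-editing enzyme A20, was at 162, 157 and 200 CPM in CTR and 44.3 and 23.4 CPM in the cREL clones with LPS (log2 fold −1.79 ± 0.41, edgeR adjusted p = 0.100). NFKBIA, the inhibitor IkB alpha, was at 268, 228 and 301 CPM against 101 and 72.1 CPM (edgeR adjusted p = 0.111). TNFAIP8 overlapped, at 79.6, 58.1 and 81.6 CPM against 59.0 and 74.9 CPM. In the survival and apoptosis list 1 of 22 was called lower, SOD2, against 0.172% of all genes tested, and the median was −0.47. The kinase gene PIM1 was at 1249, 1191 and 2045 CPM against 378 and 381 CPM (edgeR adjusted p = 0.185), without overlap.

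Upstream of NF-kB, 1 of 24 TLR4 signalling genes fell, IRAK2, against 0.172% of all genes tested. The median of the list was −0.34. Chosen after their values were seen, the receptor genes themselves were also lower without passing. TLR4 was at 143, 141 and 138 CPM in CTR and at 97.9 and 61.7 CPM in the cREL clones with LPS (log2 fold −0.76, edgeR adjusted p = 0.0907). CD14, the LPS coreceptor, was at 8.24, 5.45 and 5.05 CPM against 0.506 and 0 CPM (edgeR adjusted p = 0.300). MYD88, the main TLR adaptor, was at 501, 153 and 187 CPM against 171 and 145 CPM. IRAK1 and MAPK14 had log2 folds of −0.04 and 0.18.

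Interferon-stimulated genes spread widely between the controls. Of 44 tested 0 were called in edgeR, 16 had an unadjusted p under 0.05 and DESeq2 called 1 (GBP5). Negative folds numbered 43, and the median log2 fold was −1.70. Over all 18624 genes tested, 9.14% had an unadjusted p under 0.05 and 9565 folds were negative. Against the median of the 28 libraries the list stood at 3.93 in CTR replicate 1, 0.05 in CTR replicate 2, 0.76 in CTR replicate 3, and 0.00 and −0.19 in the cREL clones. In batch B alone the list's median was −0.05 with 24 of 44 negative, and without CTR replicate 1 the fitted median was −0.55. For the list's median, CTR replicate 2, the control in the batch of cREL replicate 1, was near both cREL clones. By gene, 18 of the 44 were lower without overlap, against 11.6% of all genes tested, and 0 were higher without overlap.

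MHC class II genes divided the cREL clones. HLA-DRA, a class II chain, was at 703 CPM in cREL replicate 1 and 40.6 CPM in cREL replicate 2, with controls at 50.2, 248 and 262 CPM. CD74, the invariant chain, was at 480 and 66.5 CPM against 109, 186 and 246 CPM, and both genes were at like levels without LPS. The list of 13 had a median log2 fold of 0.42, with 0 called by edgeR or DESeq2. At an unadjusted p under 0.05 there was 1, against 9.14% of all genes tested. The median became −1.34 without cREL replicate 1 and 1.33 without cREL replicate 2. B2M, the shared chain of class I, was at 2015, 1646 and 1448 CPM against 1767 and 1813 CPM.

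Granule protein genes of promyelocytes had mostly positive folds. Of 16 listed 13 were tested, and CLC, EPX and MPO were not. Folds were positive in 12 of the 13, against 9059 of all 18624 genes tested. Without overlap 6 were higher, against 11.1% of all genes tested. Of the 13, 0 passed in edgeR or DESeq2, and the median log2 fold was 0.90. At an unadjusted p under 0.05 there were 4, against 9.14% of all genes tested. CTSG, the protease cathepsin G, was at 437, 880 and 189 CPM in CTR and at 1966 and 2219 CPM in cREL libraries with LPS (edgeR adjusted p = 0.584). ELANE, neutrophil elastase, was at 1139, 413 and 1092 CPM against 1514 and 1722 CPM (edgeR adjusted p = 0.306). LYZ, lysozyme, overlapped, at 2307, 390 and 667 CPM against 492 and 443 CPM. The untreated median of the list was 0.60.

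Housekeeping and metabolic lists had medians between −0.23 and 0.28 in the fit, with differences between libraries beside them. Cell cycle and replication genes had a median log2 fold of 0.03 over 30 genes (0 called by edgeR or DESeq2, 4 at an unadjusted p under 0.05), cholesterol synthesis 0.10 over 17 with STARD4 called, and glycolysis and hypoxia −0.23 over 23 with SLC2A3 called. In CPM, 11 of the 30 cell cycle genes and 10 of the 23 glycolysis and hypoxia genes were lower without overlap, against 11.6% of all genes tested. Called lower were 0.172% of all genes tested, and 9.14% had an unadjusted p under 0.05. In batch B alone 25 of the 30 cell cycle genes were negative, with a median of −0.22. Mitochondrial messenger RNA had a median of 0.28 over 13 genes, and in batch B alone all 13 were positive, with a median of 0.56; MT-CO1 was at 5340 CPM in CTR replicate 2 and between 9755 and 11339 CPM in the other 4 libraries. Monocyte and macrophage genes had a median of 0.30 over 19 genes, with 0 called by either tool and 4 at an unadjusted p under 0.05.

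**Figure D4:**
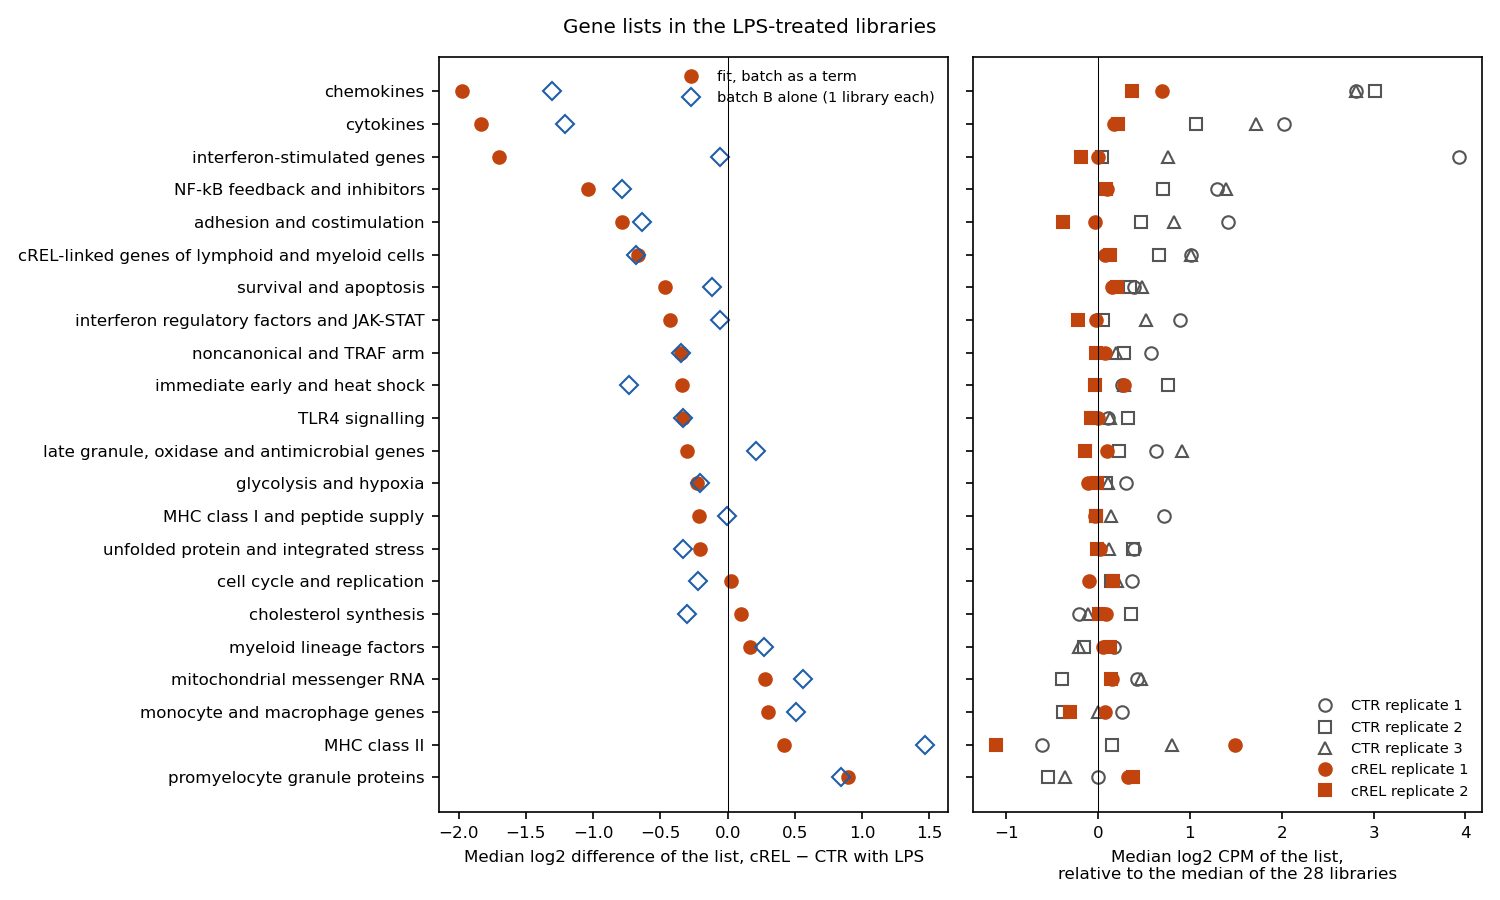
Gene lists in the LPS libraries. On the left, the median log2 difference of each list from the fit (filled) and from batch B alone (open diamonds, 1 library on each side); on the right, the median log2 CPM of the list in each library against the median of the 28 libraries. Chemokines, cytokines and feedback genes are lower in both cREL clones than in all 3 controls, interferon-stimulated genes separate CTR replicate 1 from the rest, and MHC class II separates the 2 cREL clones.

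Against the mean of the p50, p52, p65 and RELB clones with LPS, 0 genes passed in edgeR, 1073 had an unadjusted p under 0.05 (5.76%), and DESeq2 called 8, TNF, VIM, EMP1 and FERMT2 among them. The 32 lower genes all had negative folds there, 22 of them with an unadjusted p under 0.05; the cREL libraries are shared with the comparison that chose them. TNF had a log2 fold of −1.75 ± 0.37 (edgeR adjusted p = 0.394) and VIM of −0.91 ± 0.18 (edgeR adjusted p = 0.312) against the other knockouts, while CCL2 had −0.46 ± 0.44 (edgeR adjusted p = 0.896). Set against the same CTR libraries, which the comparisons therefore share, the 32 genes had median log2 folds of −1.11 (p50 clones), −1.22 (p52), −1.22 (p65) and −0.36 (RELB). Side by side in that order, CCL2 had log2 folds of −4.40, −4.78, −4.94 and −2.21, TNF of −1.09, −1.65, −2.44 and 0.24, and VIM of 0.07, 0.01, −0.33 and −0.73, where the cREL clones had −4.55, −2.98 and −1.15. Of the 20 genes of lowest p against the other knockouts, 3 (MRPL35, SUCLG1 and USP39) lie in the raised stretch of chromosome 2 of cREL replicate 2, with log2 folds of 1.02 to 1.06.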

How the data were processed

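Polyadenylated RNA of 28 U937 libraries had been amplified by PCR and sequenced as read pairs, per the labels. The authors deposited estimated counts per gene symbol, not scaled to a common total, a TPM table that the authors had scaled to 1 total per library, and effective lengths in bases. Per the submitters' processing notes Salmon 0.11.3, FastQC 0.11.7 and GRCh38 were used; further settings are not stated there. After rounding, edgeR 4.0.16 (R 4.3.3) was run on the counts with TMM scaling, keeping what filterByExpr passed at a minimum count of 10 and a minimum total of 15. The quasi-likelihood fit, with robust estimation, had 1 mean for each of 12 genotype and treatment groups plus batch, which left 14 residual degrees of freedom; the biological coefficient of variation was 31.7%. All 28 libraries entered because the batch effect needs the other knockouts. Adjustment was by Benjamini-Hochberg within each comparison, and ± values are the model's standard errors. Positions are those of GENCODE release 29. On simulated counts with this design the test recovered 97.5% of genes set 3 log2 units lower, 75.0% at 2 and 22.5% at 1. In the same run 10 genes that had not been changed were also called. The genes changed had a mean of at least 5 CPM, which 9982 of the 18624 tested reach. Each library was drawn independently, without a link between the libraries of a clone.

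Up to 15 called genes from either end by fold, with a symbol and a mean of 5 CPM or more, were named, with the subunits and, from each list, up to 4 called members and 3 others of highest CPM; genes outside this rule were chosen after their values were seen. Members and lists were chosen with earlier results of these data known. Alternatives used DESeq2 1.42.0, limma voom 3.58.1, other scaling, filter and batch settings, and each clone left out. The fit has no clone term, so its p-values and ± values, those of the LPS response included, take the untreated and LPS libraries of a clone as independent. These come from the same clone and are paired: their deviations from the group means correlated at 0.203 to 0.441. Clones enter as a random effect or fixed block only in alternatives.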

Additional observations from a re-analysis of the deposited data

How the results depend on the processing

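The 37 calls with LPS became 364 with no filter on low counts, 13 with no batch term, 18 with an effective length offset, 2 (CCL2 and SLC2A3) in the 14 LPS libraries alone, 21 in batches A and B alone and 229 with DESeq2. The 0 untreated calls became 129, 4 and 24 with no filter, in batches A and B and with DESeq2. The 0 calls in LPS response became 69 with no filter and 4 with DESeq2, and the 0 against the other knockouts 250 and 8. Leaving out 1 clone gave 1 to 32 calls with LPS, 0 to 18 untreated, 0 to 1 in LPS response and 0 to 18 against the other knockouts.

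A replicate block on the label number gave 81 calls with LPS and 4 untreated; same-numbered cREL and CTR clones correlated at −0.03 and −0.04, so the numbers do not pair them. Blocking clones as a random effect gave 38, of which 27 were among the 37, and 1 untreated. In LPS response no gene passed with clones as a random effect or as a fixed block. Leaving out the genes of windows where 1 of the 5 libraries was beyond 0.25 gave 23. The cause of these changes was not tested. Without cREL replicate 2, 0 of the 37 passed, with 1 knockout clone left. Depth limits FERMT2, SLAMF1, AC005632.2 and RAPGEF4, which had 0 to 3 counts in every library of the lower group.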
